A study of Mus musculus with 6 samples.

Results

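The 41 inflammatory and interferon response genes described here were taken by symbol from the 53379 Ensembl genes listed for each library. They comprise 6 cytokines, 9 chemokines, 9 genes of NF-kB feedback and inflammatory effector function, and 17 interferon-stimulated genes and their regulators. RNA came from small extracellular vesicles, membrane-bound particles that cells release with RNA and protein inside. The vesicles were those of wild-type mouse embryonic cortical neurons in primary culture. HypEV, with 3 libraries, are the vesicles of neurons labelled OGD/R, and NorEV, with 3 libraries, those of neurons labelled control. In the series text HypEV stands for hypoxic and NorEV for normoxic neurons. That OGD/R marks the hypoxic ones is inferred, as the labels hold no other treatment beside control. The labels do not spell out OGD/R, give no time, and do not say that replicates were separate cultures, so the spread between libraries may be technical. The question is how the RNA cargo of vesicles changes when the neurons that release them have been hypoxic.

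Tissue injury and infection are sensed by receptors that activate the transcription factor NF-kB, which turns on cytokines, chemokines and its own inhibitors. A parallel branch produces interferons, whose receptors act through JAK kinases and STAT proteins on a large set of antiviral genes. In the brain microglia, astrocytes and endothelial cells are the usual main sources of these transcripts, and neurons can also make interferon-stimulated genes. A transcript in vesicles need not mirror its level in the cells that released them.

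The promoters of the members on which the results turn differ in the response elements they match. Sequences are from RefSeq (GRCm38.p6), 250 bases before to 50 bases after the annotated start, and 32 of the 41 members matched that table. The interferon-stimulated response element was searched as GAAA, any 2 bases and GAAA (TTTC, 2 bases and TTTC on the other strand). The NF-kB site was searched as GGGA, any 2 bases and TTCC (GGAA, 2 bases and TCCC on the other strand). Each motif was searched on its own, so that matches could overlap. Capitals mark these matches. Il6 (chr5:30012864-30013163, plus strand) and Ifit2 (chr19:34550444-34550743, plus strand; the first of its RefSeq starts) are shown as the members with the smallest p-values. Nmi (chr2:51973159-51973458, minus strand) is shown as the most abundant member, and Ifit1 (chr19:34640639-34640938, plus strand) for its pair of interferon elements.
Il6: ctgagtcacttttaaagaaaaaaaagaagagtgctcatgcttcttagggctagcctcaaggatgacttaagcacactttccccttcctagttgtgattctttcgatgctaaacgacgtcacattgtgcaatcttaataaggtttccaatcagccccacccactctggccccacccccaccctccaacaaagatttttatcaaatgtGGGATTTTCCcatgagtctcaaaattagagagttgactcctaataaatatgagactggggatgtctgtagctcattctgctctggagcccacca
Ifit2: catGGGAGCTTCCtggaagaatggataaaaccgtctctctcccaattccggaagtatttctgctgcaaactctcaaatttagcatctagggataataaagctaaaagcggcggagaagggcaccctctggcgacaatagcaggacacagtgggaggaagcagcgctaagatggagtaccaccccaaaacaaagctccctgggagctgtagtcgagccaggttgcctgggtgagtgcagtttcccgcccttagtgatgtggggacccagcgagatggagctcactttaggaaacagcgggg
Nmi: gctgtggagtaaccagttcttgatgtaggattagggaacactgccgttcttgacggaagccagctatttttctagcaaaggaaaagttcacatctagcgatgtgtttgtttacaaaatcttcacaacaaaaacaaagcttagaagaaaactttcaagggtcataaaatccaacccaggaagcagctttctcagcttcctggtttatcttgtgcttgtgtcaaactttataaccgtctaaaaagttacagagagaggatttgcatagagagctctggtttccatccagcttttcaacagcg
Ifit1: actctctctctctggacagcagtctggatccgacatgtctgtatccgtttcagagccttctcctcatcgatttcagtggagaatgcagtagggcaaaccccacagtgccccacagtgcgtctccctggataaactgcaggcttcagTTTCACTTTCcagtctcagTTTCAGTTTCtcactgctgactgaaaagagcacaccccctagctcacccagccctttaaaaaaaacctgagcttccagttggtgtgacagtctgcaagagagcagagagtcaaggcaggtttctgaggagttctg
The interferon element was present in 3.44% of 32851 mouse promoters of this length, in 11 of the 32 matched members and in 9 of the 14 matched interferon-stimulated members. The NF-kB motif was present in 1.47% of all promoters and in 7 of the 32 members, Cxcl1, Cxcl2, Cxcl10, Nfkbia, Il6, Ifit2 and Ifitm3. The motif TTCNNNGAA, the core of sites bound by STAT dimers, was found in 8.30% of all promoters and in 6 of the 32 members. The window of Nmi held none of the 3 motifs. It follows the RefSeq start and lies within the gene as annotated in GENCODE M21, whose start is at 51973494. Bases before that start were not searched. A match is only a match of letters.

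Values were deposited as FPKM, in which the fragments of a gene are divided by its length and by the library's total. The libraries held 1092729 to 2141603 fragments on genes. A very short entry, Gm23935, annotated as a microRNA, took 49.5%, 1.95% and 24.4% of the fragments of HypEV 1, 2 and 3, against 4.31%, 0.554% and 0.297% in NorEV 1, 2 and 3. Protein-coding genes were left with 39.5%, 77.1% and 57.2% in HypEV and 74.2%, 77.5% and 77.9% in NorEV. These shares have 95% Wilson intervals of at most 0.0844 percentage points to either side, for counting error only. FPKM divides by the whole library, so a large share of 1 entry lowers the FPKM of every other gene by arithmetic, and main results are therefore also given rescaled, with the fragments on protein-coding genes as the total.

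Transcripts of the inflammatory and interferon genes were present in the vesicles at the level of an average protein-coding gene, and none passed the test of HypEV against NorEV. Their median was 3.998, 8.42 and 5.74 FPKM in HypEV 1, 2 and 3, against 6.19, 8.42 and 8.45 FPKM in NorEV 1, 2 and 3. The medians of all 21865 protein-coding genes were 3.53, 8.22 and 5.05 FPKM in HypEV and 6.72, 7.24 and 8.21 FPKM in NorEV. Both sets were thus low in HypEV 1 and 3, the libraries rich in Gm23935. HypEV 1 was the lowest library for 16 of the 40 tested members and the highest for 1. HypEV 3 was the lowest for 13 and the highest for 5, and HypEV 2 was the highest library for 11 and the lowest for 4. Counts of the lowest library include Il1b, Ccl7 and Bst2, in which a HypEV library and NorEV 1 were both at 0.

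**Figure D1:**
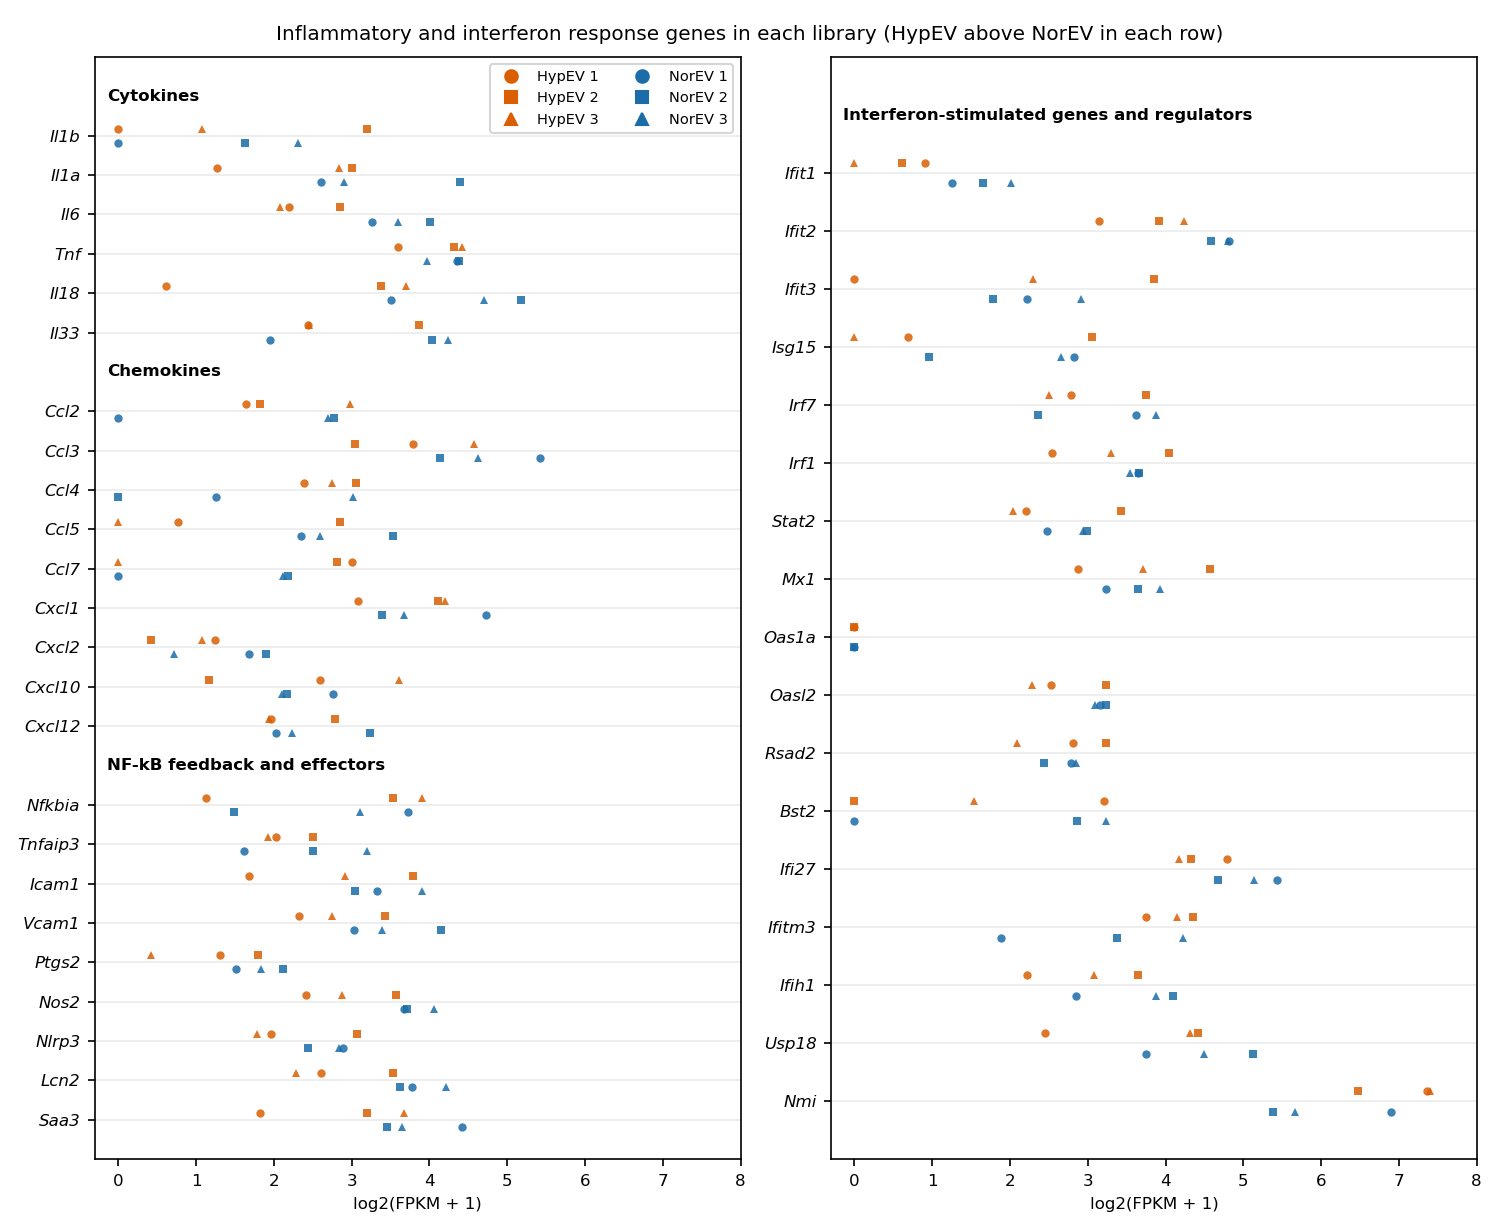
Level of each of the 41 members in each library, as log2(FPKM + 1), with the 3 HypEV libraries above the 3 NorEV libraries in each row. Nmi lies right of all other members in every library, Oas1a lies at 0 throughout, and for most members the symbols of both groups interleave.

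Most members, like most protein-coding genes, lay within the range of genes that neurons are not known for. Olfactory receptor genes, which belong to the nasal epithelium, had medians of 0.934, 2.74 and 1.63 FPKM in HypEV and 2.39, 2.54 and 2.84 FPKM in NorEV over 1134 genes, below the medians of the members in every library. Their 95th percentile of mean FPKM was 9.52, and 25 of the 41 members lay at or below it. The other 16 members lay above it, as did 33.1% of all protein-coding genes. Nmi, Ifi27 and Ccl3 were the 3 members with a mean above 20 FPKM. Counts behind the values were small, with a median of 18 to 34 reads per member in a library. Of the 40 tested members, 15 averaged fewer than 20 reads, and 10 of the 41 were at 0 in at least 1 library.

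The test was limma on log2(FPKM + 1), with a Benjamini-Hochberg adjusted p under 0.05 over the 44125 genes that averaged 1 FPKM or more. A log2 fold change below is that of FPKM + 1, HypEV over NorEV, which understates changes of low genes. No member passed, and the smallest adjusted p in limma was 0.720. Of all tested genes 0.0159% passed. Unadjusted p-values were under 0.05 for 2 members, Il6 and Ifit2, both lower in HypEV, beside 6.13% of all tested genes that were lower with such a p. Of the tested members 30 were lower and 10 higher in HypEV, and 74.9% of all tested genes were lower. The members' median log2 fold change was −0.46, and that of all tested genes −0.44. Rescaled to coding genes, 23 members were lower, beside 56.9% of all tested genes, and the medians were −0.09 for the members and −0.12 for all tested genes. Shares and medians of the members were thus close to those of all tested genes on both scales.

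For 5 members all HypEV libraries lay below all NorEV libraries, and for none were all above. They were Il6, Nos2, Lcn2, Ifit1 and Ifit2. Ifit1, with a mean of 0.467 FPKM in HypEV and 2.18 FPKM in NorEV, passed the filter on low values through NorEV alone. Its place in this count is therefore no support for a difference. Among all tested genes 10.8% had HypEV wholly below and 1.1% wholly above. After rescaling to coding genes HypEV was wholly below for 3 members, Il6, Nos2 and Lcn2, and wholly above for 2, Ccl4 and Ifitm3. The background on that scale was 6.25% below and 4.16% above.

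**Figure D2:**
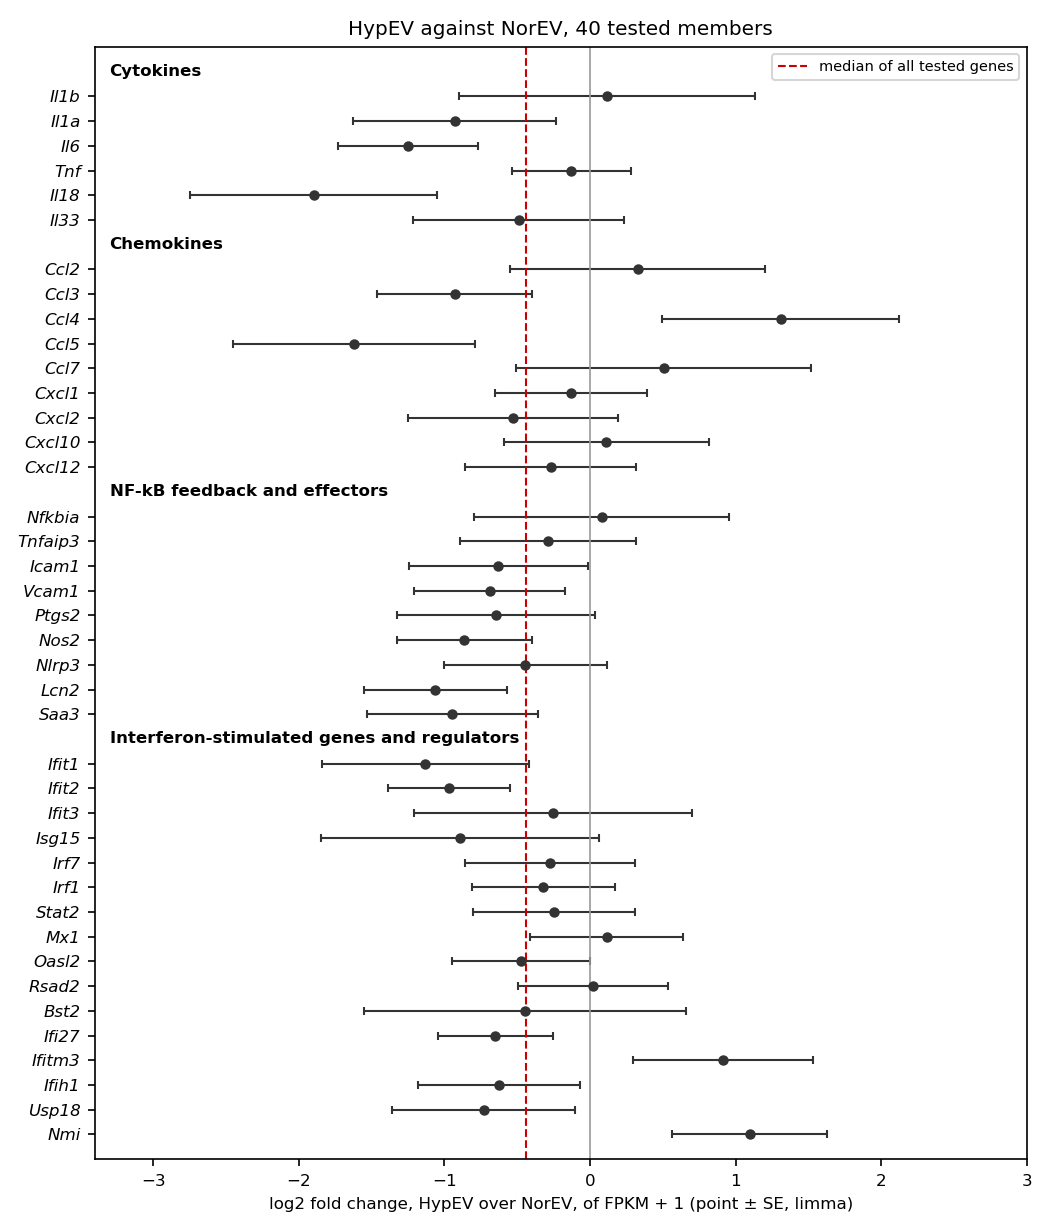
Fitted log2 fold change of FPKM + 1, HypEV over NorEV, of the 40 tested members by role, with bars of 1 standard error from limma. The dashed line is the median of all tested genes at −0.44. Most points lie left of 0 and around that line, and Nmi, Ccl4 and Ifitm3 lie farthest to the right.

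The cytokines, secreted signals that set off inflammation in neighbouring cells, were lower in HypEV in 5 of 6 cases, or in 4 of 6 rescaled to coding genes, and none passed the threshold. Their median log2 fold change was −0.71, or −0.36 rescaled. With so few genes, these counts are near the 74.9% and 56.9% of all tested genes that were lower on the same scales. Il6, which drives the acute-phase response, was the only cytokine whose groups did not overlap. It had 3.59, 6.20 and 3.23 FPKM in HypEV 1, 2 and 3, against 8.59, 15.1 and 11.1 FPKM in NorEV 1, 2 and 3. Every HypEV library was below every NorEV library, also after rescaling, where Il6 had 9.08, 8.04 and 5.65 in HypEV and 11.6, 19.5 and 14.3 in NorEV. The fold change was −1.25 ± 0.48 (log2, SE), with an adjusted p of 0.720 in limma, from 10 to 21 reads in HypEV and 22 to 50 in NorEV.

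Il18, an IL-1 family cytokine that inflammasomes release, had 0.528, 9.38 and 11.98 FPKM in HypEV against 10.3, 35.2 and 24.95 FPKM in NorEV. HypEV 1 held a single read and HypEV 3 lay above NorEV 1. The log2 fold change of Il18 was −1.90 ± 0.85 (SE), and −0.92 without HypEV 1. Il1a, a cytokine that dying cells set free, had 1.42, 7.01 and 6.14 FPKM in HypEV and 5.10, 20.1 and 6.44 FPKM in NorEV. The groups overlapped, and the log2 fold change of −0.93 became −0.38 without NorEV 2 and also −0.38 without HypEV 1. Tnf, a cytokine that activates NF-kB through its receptors, was close between the groups, with 11.1, 19.0 and 20.3 FPKM in HypEV against 19.5, 19.9 and 14.7 FPKM in NorEV. Its fold change was −0.13 ± 0.41 (log2, SE) on the deposited scale, 0.31 rescaled to coding genes and 0.13 without HypEV 1, so no direction is given. Il33, an alarmin kept in the nucleus, had 4.41, 13.6 and 4.46 FPKM in HypEV and 2.88, 15.3 and 17.9 FPKM in NorEV, with wide overlap. Il1b, another inflammasome product, was near its detection limit, with 0, 16 and 2 reads in HypEV and 0, 4 and 8 in NorEV.

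The chemokines, which guide leukocytes along gradients, were split, with 5 of 9 lower and 4 higher in HypEV and none past the threshold. Their median log2 fold change was −0.13 as deposited and 0.29 rescaled to coding genes, where 3 were lower and 6 higher. Ccl3, a monocyte attractant of activated microglia and the most abundant chemokine, had 12.8, 7.22 and 22.7 FPKM in HypEV against 41.8, 16.6 and 23.6 FPKM in NorEV. HypEV 3 overlapped with NorEV 2, and the log2 fold change was −0.93 ± 0.53 (SE). Ccl4, its close relative and neighbour on chromosome 11, had a positive fold change, with 4.24, 7.34 and 5.74 FPKM in HypEV against 1.39, 0 and 7.10 FPKM in NorEV. Those values of Ccl4 rest on 5 to 7 reads per HypEV library and 0 to 7 per NorEV library, and its fold change was 1.31 ± 0.81 (log2, SE). Rescaled to coding genes, Ccl4 had 10.7, 9.52 and 10.03 in HypEV and 1.87, 0 and 9.11 in NorEV, without overlap.

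Ccl5, which draws T cells and monocytes, had 0.699, 6.21 and 0 FPKM in HypEV and 4.11, 10.6 and 5.01 FPKM in NorEV, from at most 10 reads in a library. Only HypEV 2 reached the NorEV range. Cxcl1, a neutrophil attractant, had 7.49, 16.3 and 17.4 FPKM in HypEV against 25.4, 9.45 and 11.8 FPKM in NorEV. Its log2 fold change was −0.13 ± 0.52 (SE), 0.29 rescaled, 0.23 without HypEV 1 and 0.27 without NorEV 1, so no direction is given. Cxcl10, the interferon-induced attractant of T cells, had 5.03, 1.24 and 11.2 FPKM in HypEV and 5.75, 3.49 and 3.30 FPKM in NorEV. Both the highest and the lowest library of Cxcl10 were HypEV libraries. Ccl2 and Ccl7, both monocyte attractants, and Cxcl2, a neutrophil attractant, were read from at most 12 reads per library and had log2 fold changes of 0.33, 0.51 and −0.53. Cxcl2 averaged 0.930 ± 0.531 FPKM in HypEV and 1.87 ± 1.09 FPKM in NorEV (SD, n = 3 each), and passed the filter on low values through NorEV alone. Cxcl12, which is made constitutively and steers migrating neurons, averaged 3.88 ± 1.75 FPKM in HypEV and 5.07 ± 2.92 FPKM in NorEV (SD, n = 3 each).

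Genes of NF-kB feedback and inflammatory effector function were lower in HypEV in 8 of 9 cases, with none past the threshold and a median log2 fold change of −0.64. Rescaled to coding genes, 7 were lower and the median was −0.31. Nos2, which makes nitric oxide in activated cells, had 4.34, 10.9 and 6.32 FPKM in HypEV against 11.8, 12.2 and 15.6 FPKM in NorEV. Lcn2, a siderophore-binding protein that reactive astrocytes make, had 5.10, 10.6 and 3.86 FPKM in HypEV against 12.7, 11.3 and 17.5 FPKM in NorEV. Neither gene overlapped between the groups on either scale, though HypEV 2 came close to the lowest NorEV library in both. The log2 fold changes were −0.86 ± 0.47 for Nos2 and −1.06 ± 0.49 for Lcn2 (SE), with adjusted p-values in limma of 0.738 and 0.720. Saa3, an acute-phase protein, had 2.55, 8.17 and 11.7 FPKM in HypEV and 20.4, 9.97 and 11.6 FPKM in NorEV, and HypEV 3 overlapped with NorEV.

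The feedback inhibitors overlapped between the groups. Nfkbia, which holds NF-kB in the cytoplasm, averaged 8.54 ± 6.59 FPKM in HypEV and 7.20 ± 5.21 FPKM in NorEV (SD, n = 3 each). Tnfaip3, a ubiquitin-editing brake on the same pathway, averaged 3.53 ± 1.01 FPKM in HypEV and 4.98 ± 3.08 FPKM in NorEV (SD, n = 3 each). Single libraries of Nfkbia ran as low as 1.18 FPKM in HypEV and 1.79 FPKM in NorEV, with 4 reads in each of these. The adhesion molecules Icam1 and Vcam1, which hold leukocytes to endothelium, had log2 fold changes of −0.63 ± 0.62 and −0.69 ± 0.52 (SE). Ptgs2, the inducible cyclooxygenase that active neurons also make, averaged 1.43 ± 1.07 FPKM in HypEV and 2.58 ± 0.744 FPKM in NorEV (SD, n = 3 each). Nlrp3, the sensor of an inflammasome, averaged 4.25 ± 2.74 FPKM in HypEV and 5.64 ± 1.08 FPKM in NorEV (SD, n = 3 each).

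Of the 17 interferon-stimulated genes and regulators 16 could be tested, and 12 were lower and 4 higher in HypEV, with none past the threshold. Their median log2 fold change was −0.38, and −0.07 rescaled to coding genes. Ifit2, which binds viral RNA and restrains its translation, had 7.83, 14.1 and 17.8 FPKM in HypEV against 27.1, 23.0 and 27.0 FPKM in NorEV. All HypEV libraries lay below all NorEV libraries as deposited, from 64 to 90 reads in HypEV and 113 to 154 in NorEV. The log2 fold change was −0.97 ± 0.42 (SE), with an adjusted p of 0.720 in limma, and after rescaling the groups overlapped. Ifi27, a small membrane protein that interferon induces, had 26.8, 19.1 and 17.05 FPKM in HypEV against 42.2, 24.6 and 34.2 FPKM in NorEV. HypEV 1 exceeded NorEV 2, and the log2 fold change was −0.65 ± 0.40 (SE).

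Ifit1, a relative of Ifit2 whose promoter above carries the interferon element more than once, had 0.879, 0.521 and 0 FPKM in HypEV against 1.38, 2.13 and 3.02 FPKM in NorEV, from 0 to 5 reads in HypEV and 4 to 12 in NorEV. It passed the filter through NorEV alone, and its groups overlapped after rescaling. Ifit3 averaged 5.79 ± 6.93 FPKM in HypEV and 4.21 ± 2.10 FPKM in NorEV (SD, n = 3 each). It had 0 to 34 reads in HypEV libraries and 6 to 17 in NorEV libraries. HypEV 2 alone had 13.5 FPKM, and the log2 fold change was −0.25 ± 0.95 (SE). The transcript of Ifit3 is 97.8% identical to that of Ifit3b over 97.4% of its length, so the split of reads between these copies is uncertain. Ifit3b had 4.44, 4.84 and 4.92 FPKM in HypEV and 11.4, 8.14 and 7.36 FPKM in NorEV. It was wholly lower in HypEV as deposited, as were 10.8% of all tested genes. Oas1a, which makes the activator of RNase L, was at 0 in all 6 libraries, where a count of 0 allows up to 3 reads per library. It is 97.6% identical to Oas1g over 98.7% of its length, and Oas1g was at 0 throughout as well. Isg15, the ubiquitin-like modifier that is usually among the most strongly induced of these genes, had 0.618, 7.32 and 0 FPKM in HypEV and 6.05, 0.936 and 5.31 FPKM in NorEV, from at most 8 reads in a library. Its transcript is 95.2% identical to that of AC151275.1 over 63.8% of its length, so the split of reads is uncertain for Isg15 too.

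The transcription factors of the interferon response overlapped between the groups. Irf1 averaged 9.73 ± 5.42 FPKM in HypEV and 11.3 ± 0.537 FPKM in NorEV (SD, n = 3 each, as for the next 2 genes). Irf7 averaged 7.65 ± 4.14 FPKM in HypEV and 9.69 ± 4.94 FPKM in NorEV. Stat2 averaged 5.49 ± 3.70 FPKM in HypEV and 6.06 ± 1.29 FPKM in NorEV. Among antiviral effectors, Mx1, a GTPase that traps viral particles, had a log2 fold change of 0.12 ± 0.52 (SE). Rsad2, which makes a chain-terminating nucleotide, had one of 0.02 ± 0.52, and Oasl2 had one of −0.47 ± 0.48 (SE). Ifih1, a sensor of double-stranded RNA, and Usp18, which removes Isg15 and damps the receptor, had log2 fold changes of −0.62 ± 0.56 and −0.73 ± 0.63 (SE). Bst2, which tethers virions to the membrane, ranged over 0 to 8.25 FPKM in HypEV and 0 to 8.45 FPKM in NorEV. Ifitm3, which blocks viral entry at endosomes, had 12.4, 19.4 and 16.7 FPKM in HypEV against 2.70, 9.39 and 17.8 FPKM in NorEV. As deposited only NorEV 3 of Ifitm3 reached the HypEV range, and rescaled it had 31.4, 25.2 and 29.3 in HypEV and 3.64, 12.1 and 22.8 in NorEV, without overlap. These values rest on 18, 19 and 15 reads in HypEV and 2, 9 and 18 in NorEV. The log2 fold change of Ifitm3 was 0.92 ± 0.62 (SE), with an adjusted p of 0.772 in limma. Its transcript is 91.6% identical to that of Gm6885 over 52.5% of its length, and Gm6885 was at 0 throughout.

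**Figure D3:**
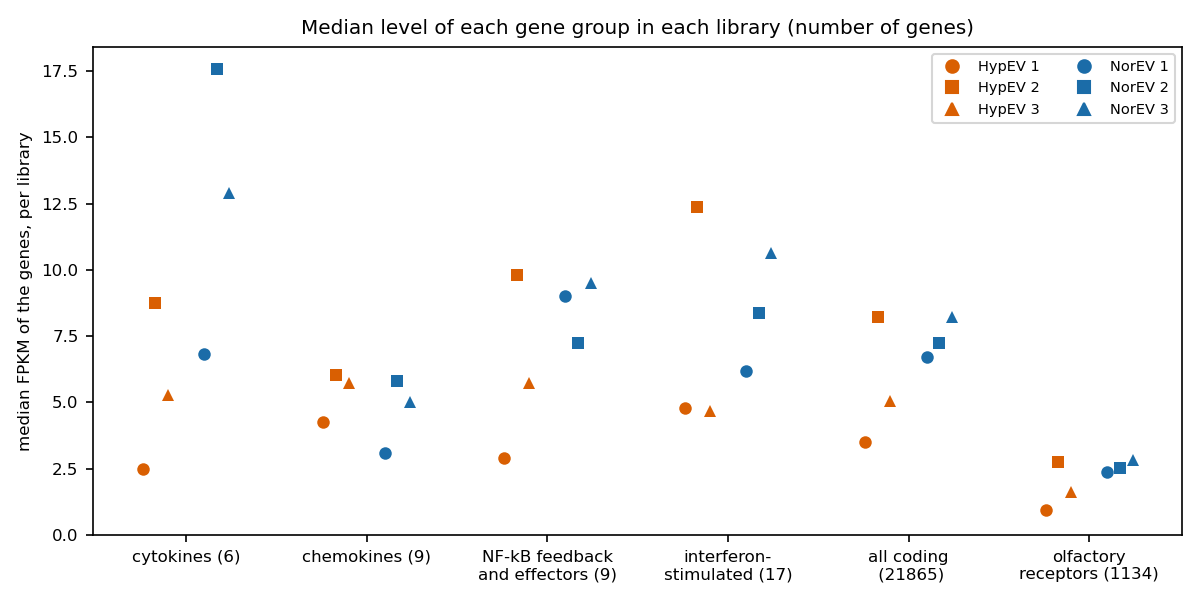
Median FPKM of each group of members in each library, beside all protein-coding genes and olfactory receptor genes, with HypEV left of NorEV. Cytokines are highest in NorEV 2 at 17.6 FPKM and NorEV 3 at 12.9 FPKM, chemokines lie close together in all libraries, and HypEV 1 and 3 are low for NF-kB effectors and for coding genes alike.

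Nmi stood apart from the other members in level. It encodes an interferon-induced protein that binds STAT proteins and MYC family members, and lies on the minus strand of chromosome 2 (chr2:51948487-51973494, GRCm38, GENCODE M21). Nmi had 163, 87.9 and 168 FPKM in HypEV 1, 2 and 3, against 118, 40.6 and 49.8 FPKM in NorEV 1, 2 and 3. By mean FPKM it stood at percentile 99.9 of the protein-coding genes, and it ranked 10, 27 and 19 among them in HypEV, against 46, 535 and 204 in NorEV. It held 34.0%, 11.1% and 25.9% of all reads on the members in HypEV and 15.996%, 5.16% and 6.06% in NorEV. Reads were therefore not scarce, with 450, 164 and 287 in HypEV and 167, 74 and 96 in NorEV.

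Nmi averaged 139.6 ± 44.9 FPKM in HypEV and 69.6 ± 42.5 FPKM in NorEV (SD, n = 3 each). The groups overlapped, since NorEV 1 exceeded HypEV 2. The log2 fold change was 1.10 ± 0.53 (SE), with an adjusted p of 0.720 in limma. Rescaled to coding genes, Nmi had 412, 114 and 294 in HypEV and 159.5, 52.3 and 63.9 in NorEV, and again NorEV 1 exceeded HypEV 2. With limma-voom on reads recovered from the FPKM and library totals over coding genes, Nmi had a log2 fold change of 1.58 ± 0.34 (SE) and an adjusted p of 0.0236, the only member that passed under any of the 15 alternatives run for every result. That fit called 0.132% of the 42337 genes it tested, 0.0449% as higher, and 0.133% of the coding ones. With totals over all genes the log2 fold change was 1.16 and the adjusted p in limma-voom 0.166, in a fit that called 0.539% of genes. In a step added after the data were seen, the fit on coding totals was repeated without each library in turn, and Nmi passed in 3 of 6 fits. It did not pass without HypEV 1 (log2 fold change 1.18, adjusted p 0.559), without HypEV 3 (1.43, adjusted p 0.284) or without NorEV 2 (1.27, adjusted p 0.0542).

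**Figure D4:**
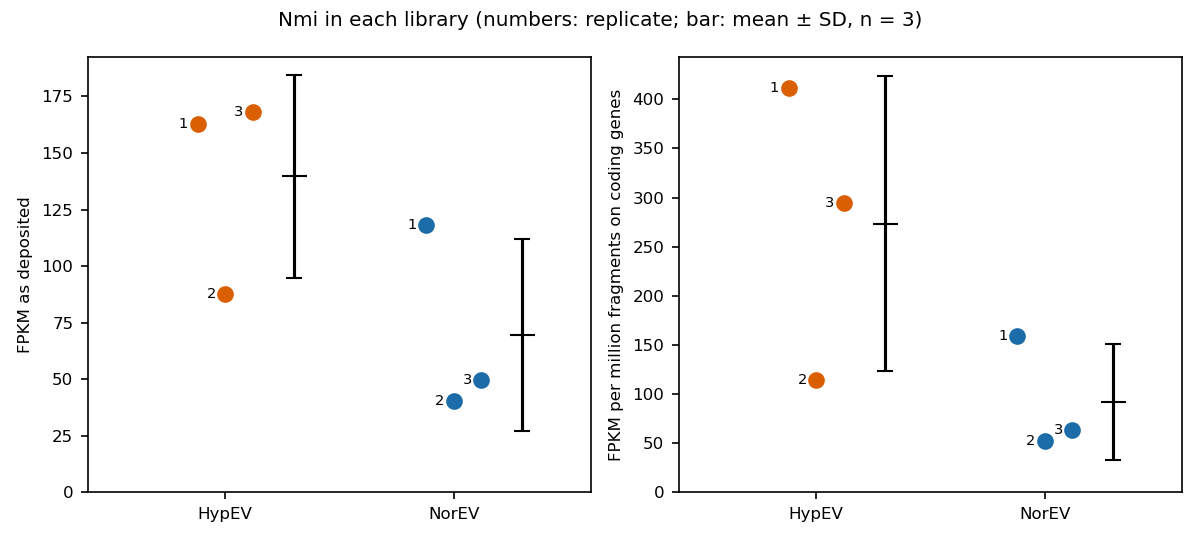
Nmi in each library, as deposited FPKM on the left and rescaled to the fragments on coding genes on the right, with the mean ± SD of 3 libraries as bars. The 3 highest libraries are HypEV 1, HypEV 3 and NorEV 1 on both scales, and NorEV 1 lies above HypEV 2.

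The 3 libraries highest in Nmi were also those in which Gm23935 took the largest shares of fragments, HypEV 1, HypEV 3 and NorEV 1. Among these, both HypEV libraries exceeded NorEV 1 in Nmi and in the share of Gm23935. Among the others, HypEV 2 exceeded NorEV 2 and 3 in both. Group and share of Gm23935 can therefore not be told apart for Nmi. The part of Gm23935 in the values of Nmi was not tested. None of the 2067 words of 25 bases in the transcripts of Nmi occurs in transcripts of another gene, and no copy of it was found at over 90% identity over more than 50% of its length. Rbm43, which adjoins Nmi, had 10.9, 16.4 and 15.8 FPKM in HypEV and 7.82, 5.38 and 6.04 FPKM in NorEV. FPKM give one value per gene, so where along Nmi the reads fell is not known.

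Genes around the members in the same pathways gave no call either. In each list fewer genes were lower after rescaling, as among all tested genes (74.9% lower as deposited, 56.9% rescaled). The 2 genes named of each list have its smallest p-values in limma, and such genes tend not to overlap between groups. In the order of the lists below, HypEV was wholly below NorEV for 3, 0, 0, 4 and 8 tested genes. It was wholly above for 0, 0, 1, 0 and 0. Rescaled, these counts were 1, 0, 0, 2 and 4 below and 0, 1, 1, 1 and 2 above. Of all tested genes 10.8% lay below and 1.1% above, or 6.25% and 4.16% rescaled. Of 18 cytokine and chemokine receptors, 17 were lower and 1 higher in HypEV, with none past the threshold and a median log2 fold change of −0.44. Rescaled to coding genes, 10 were lower and 8 higher, with a median of −0.12. Cxcr2, the receptor of Cxcl1 and Cxcl2, had 6.29, 5.45 and 2.98 FPKM in HypEV against 10.8, 9.29 and 12.3 FPKM in NorEV, without overlap as deposited but with overlap rescaled. Il1rn, the natural antagonist of the IL-1 receptor, had 6.95, 17.60 and 10.7 FPKM in HypEV against 17.56, 28.5 and 24.6 FPKM in NorEV. As deposited HypEV 2 lay just above NorEV 1 in Il1rn, and rescaled all HypEV libraries of Il1rn lay below. Of 23 genes of Toll-like receptor and NF-kB signalling, 16 were lower and 7 higher, with none past the threshold and a median of −0.26. Rescaled, this list turned round, with 7 lower and 16 higher and a median of 0.12. Ikbkb, a kinase that marks the NF-kB inhibitor for decay, had 10.3, 27.7 and 19.2 FPKM in HypEV against 22.9, 40.01 and 34.5 FPKM in NorEV. Irak2, a kinase of that pathway with a positive fold change, had 15.8, 21.6 and 22.7 FPKM in HypEV and 19.5, 6.86 and 11.7 FPKM in NorEV. Both overlapped between the groups as deposited, and rescaled Irak2 was wholly higher in HypEV, with 39.9, 28.1 and 39.8 against 26.2, 8.85 and 15.1 in NorEV.

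Interferon genes themselves were listed at low levels, with a median of mean FPKM of 1.93, beside 2.32 for olfactory receptor genes. Copies were sought for the members only, so the split of reads between interferon genes was not checked. Of 19 ligand genes 15 could be tested, 10 lower and 5 higher with none past the threshold (8 lower and 7 higher rescaled), and the median FPKM of the 19 was 0, 3.69 and 0 in HypEV and 0, 2.48 and 2.68 in NorEV. Ifna2 had 0, 2 and 0 reads in HypEV and 1, 6 and 10 reads in NorEV, and Ifna15 had 0 reads in each HypEV library and 0, 2 and 6 reads in NorEV. No fold is given for such counts. Of 17 genes of interferon receptors, sensors and signalling, 13 were lower and 4 higher, with none past the threshold and a median log2 fold change of −0.44. Rescaled, 10 were lower and 7 higher, with a median of −0.07. Mavs, the mitochondrial adaptor of the RNA sensors Ifih1 and Ddx58, had 4.12, 7.24 and 2.97 FPKM in HypEV against 18.9, 17.1 and 12.3 FPKM in NorEV. Its groups did not overlap on either scale, with a log2 fold change of −1.61 ± 0.47 (SE) and an adjusted p of 0.617 in limma. Jak1, a kinase of the interferon receptors, had 5.14, 18.3 and 13.1 FPKM in HypEV against 19.96, 20.2 and 20.7 FPKM in NorEV, also without overlap on either scale. Of 38 tested further interferon-stimulated genes, 32 were lower and 6 higher, with none past the threshold and a median of −0.46. Rescaled, 22 were lower and 16 higher, with a median of −0.09. Eif2ak2, a kinase that halts translation on double-stranded RNA, had 1.73, 5.29 and 2.81 FPKM in HypEV against 8.70, 8.69 and 8.22 FPKM in NorEV, without overlap on either scale. Rtp4 had 11.3, 14.9 and 5.70 FPKM in HypEV against 17.7, 24.0 and 24.5 FPKM in NorEV, without overlap as deposited but with overlap rescaled.

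Markers of microglia and astrocytes, which usually make these transcripts, were listed at levels near those of the members. Endothelial markers were listed at higher levels. Medians of mean FPKM were 7.87, 5.58 and 13.8 for microglial, astrocyte and endothelial markers. The members had 7.87 and all protein-coding genes 6.80. The 14 neuronal markers had medians of 5.39, 10.1 and 10.2 FPKM in HypEV and 7.99, 8.53 and 11.2 FPKM in NorEV, and none was at 0 in any library. The 13 microglial markers had medians of 4.17, 8.62 and 6.55 FPKM in HypEV and 9.18, 8.54 and 8.08 FPKM in NorEV, and their summed level was 78.0 to 152 FPKM in HypEV and 127 to 146 FPKM in NorEV. Among them Tmem119 and C1qb were at 0 in HypEV 1. The 9 astrocyte markers summed to 47.1 to 102 FPKM in HypEV and 75.4 to 97.8 FPKM in NorEV, the 8 endothelial markers to 60.7 to 149.95 FPKM in HypEV and 137 to 193 FPKM in NorEV, and the 10 blood markers to 37.6 to 90.5 FPKM in HypEV and 67.2 to 144 FPKM in NorEV. None of these markers passed the threshold. The median log2 fold change of the 9 tested blood markers was −1.24, or −0.91 rescaled, lower than that of any role group of the members. Of these 9 blood markers, 8 were lower as deposited and 6 rescaled. Hba-a1 and S100a9 were each at 0 in 3 of 6 libraries. Hbb-bs was highest in HypEV 1, at 18.6 FPKM, and at 0 in NorEV 1. Endothelial markers had a median of −0.59, or −0.18 rescaled, with 7 of 7 tested genes lower as deposited and 4 of 7 rescaled. Medians of neuronal, microglial and astrocyte markers were −0.28, −0.20 and −0.16 as deposited and 0.12, 0.06 and 0.26 rescaled. Fewer cells of a type, less RNA per cell and less of it in vesicles cannot be told apart in such samples. The part of these cells in the members' values was not tested.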

How the data were processed

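RNA of small extracellular vesicles was taken up in Trizol and sequenced with a longRNA-seq library kit of Epibiotek (Epi mini), per the labels' protocols. The authors deposited FPKM per Ensembl gene in 1 table per library, whose names mention HTSeq; aligner, build and kit strandedness are not given in the sources used here. Symbols, lengths and coordinates are from GENCODE M21 (GRCm38), in which 53274 of 53379 identifiers were found. With each gene's longest transcript, 95.9% of the deposited FPKM above 0 were whole reads within 0.01 reads, and all 41 members were whole in all libraries, which gave reads and depth; 1 read on 1 kilobase was worth 0.467 to 0.915 FPKM. Counting used strand: of 679 genes covered by other genes' exons on the same strand 659 were at 0 throughout, against 67 of 447 covered on the opposite strand. Exons of 8 members overlap a gene on the opposite strand and none on the same.

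limma 3.58.1 (R 4.3.3) was run on log2(FPKM + 1) for genes averaging 1 FPKM or more (eBayes with variance trend, two-sided tests, all 6 libraries, without covariates). A trial on simulated reads left out the uneven shares of Gm23935 and changed only genes above the median level. It therefore does not speak for these libraries or for low members. Adjusted p-values are over all 44125 tested genes. Oas1a was not tested, and Ifit1 and Cxcl2 passed the filter through NorEV alone. Alternatives were another pseudocount, other filters, 2 scalings, no trend, a replicate block, limma-voom on recovered reads with 2 kinds of totals, and each library left out. Copies were sought with blastn 2.17.0 and overlaps with bedtools 2.31.1; Python 3.11.15 did the rest. Groups follow the treatment labels. The members, lists and tests were chosen with earlier results of these data known. In each role group, members given with all library values include the 3 of highest mean FPKM and the 3 of smallest p, and of each pathway list the 2 of smallest p; Il1b, Isg15, Ifit1 and Ifitm3 were added after their values were seen. Rbm43 and Ifit3b were likewise added. Cgas was matched through a RefSeq synonym. The limit of 20 reads was set after the data were seen.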

Additional observations from a re-analysis of the deposited data

How the results depend on the processing

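The number of genes past the threshold was 7 in the analysis as reported, 0 with a pseudocount of 0.1, without a filter, with centred libraries or without a trend, 228 with limma-voom on recovered reads and 56 with limma-voom on totals of coding genes, and 0 to 71 with 1 library left out, the 71 without HypEV 2. Members past the threshold numbered 0 in the 15 alternatives run for every result, except limma-voom on totals of coding genes, with 1 (Nmi), and at 0 to 1 in that fit with each library left out; Nmi then had log2 fold changes of 1.18 to 2.23. The members' median log2 fold change moved beyond the spread between libraries only when libraries were centred (−0.011). Of the 16 members named by rule, 13 kept their sign in every one of these in which they could be tested; Ccl4 and Ccl5 did not reach the minimum mean of 5 FPKM. Tnf and Cxcl1 turned positive with centred libraries (0.32 for both), scaled to coding genes (0.31 and 0.29) and in limma-voom on coding totals (0.35 and 0.41). With 1 library left out Tnf ranged over −0.28 to 0.13, Cxcl1 over −0.40 to 0.27 and Cxcl10 over −0.46 to 0.76 (log2); the cause was not tested. With the replicate block 0 genes and 0 members passed, and the median of the members was unchanged at −0.46; deviations of same-numbered libraries correlated at 0.04, 0.10 and −0.06, so the numbers were not taken to pair libraries. With a minimum mean of 5 FPKM, 27 members could be tested. Read numbers set the precision: 15 of 40 tested members averaged fewer than 20 reads, and standard errors ran from 0.40 to 1.11 (log2).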
